A study of Rattus norvegicus with 16 samples.

Results

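The 8 antioxidant defence genes Sod1, Sod2, Cat, Gpx4, Hmox1, Nqo1, Gclc and Nfe2l2 were followed in testicular germ cells (GCs) of rats that ate a high-fat diet (HFD) or its control diet (CD). They were chosen by Ensembl identifier and chromosome, not by their counts, and are 8 of the 26560 genes in the count tables. All 8 lay on the chromosome the choice required, and all 8 were among the 19446 genes whose count averaged 1 or more over the mRNA libraries. GCs came from male Sprague-Dawley rats, of the GCS-eGFP line by the study's methods, in which eGFP marks germ cells. The rats ate the CD, with 10% of calories from fat, or the HFD, with 40% by the sample labels and a larger share by the study's methods, from weaning until 19 weeks of age. Cells of dispersed testes were sorted by flow cytometry for eGFP, so that all eGFP-positive stages of spermatogenesis were pooled in one sample. There were 4 mRNA libraries from the HFD and 4 from the CD, and the study describes one animal per library. Each library held between 38633043 and 62038805 counts of reads assigned to genes, with a median of 44679417 for the HFD libraries and 45368848 for the CD libraries.

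Cells that respire form superoxide, which superoxide dismutases turn into hydrogen peroxide, and catalase and peroxidases then remove the peroxide. Glutathione is the electron donor for the glutathione peroxidases, and NRF2, the product of Nfe2l2, is the transcription factor that switches on many antioxidant genes when it escapes its inhibitor KEAP1. In the testis GPX4 has a further role, because its protein becomes a structural part of the sperm midpiece. Levels are given below in RPKM, the count divided by the gene's exon length in kb and scaled to a library of 1000000 counts, which allows genes of different length to be compared. Values for single libraries are listed from replicate 1 to replicate 4. As RNA was taken from sorted bulk cells, fewer cells of a stage and less RNA per cell cannot be told apart. The count tables carry no symbols and the reference gene table matched 0 of the 26560 identifiers, so that the label germ cell could not be checked against its markers (0 of 30 matched). The study itself checked the purity of the sort by qPCR of a germ cell, a Sertoli cell and a Leydig cell gene. For the same reason 0 of 51 other antioxidant genes listed for comparison could be found, and no gene outside the 8 is named.

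The transcripts of the 8 genes spanned more than 3 orders of abundance, and Gpx4 stood far above the rest. The mean level of Gpx4 over the 8 libraries was 6624 times that of Cat, the lowest of the 8 by mean. In single libraries the ratio ran from 2700 in CD replicate 4 to 15625 in CD replicate 3. By mean level Gpx4 was the 17th of the 19446 genes tested, Sod1 the 1578th and Nfe2l2 the 3497th. Sod2 was at percentile 65.0 of these genes, Nqo1 at 54.8, Hmox1 at 50.6, Gclc at 32.2 and Cat at 30.5. By mean level the antioxidant transcripts of these GCs therefore fell on both sides of the median gene tested, with Gclc and Cat below it. Hmox1 lay on either side of it in single libraries, from percentile 43.6 in HFD replicate 4 to 54.0 in HFD replicate 3. Among all listed genes, Gclc was at percentile 50.3 and Cat at 49.1. Together the 8 genes took between 0.156% and 0.197% of a library's gene counts, and Gpx4 alone between 91.4% and 94.4% of the counts of the 8.

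**Figure D1:**
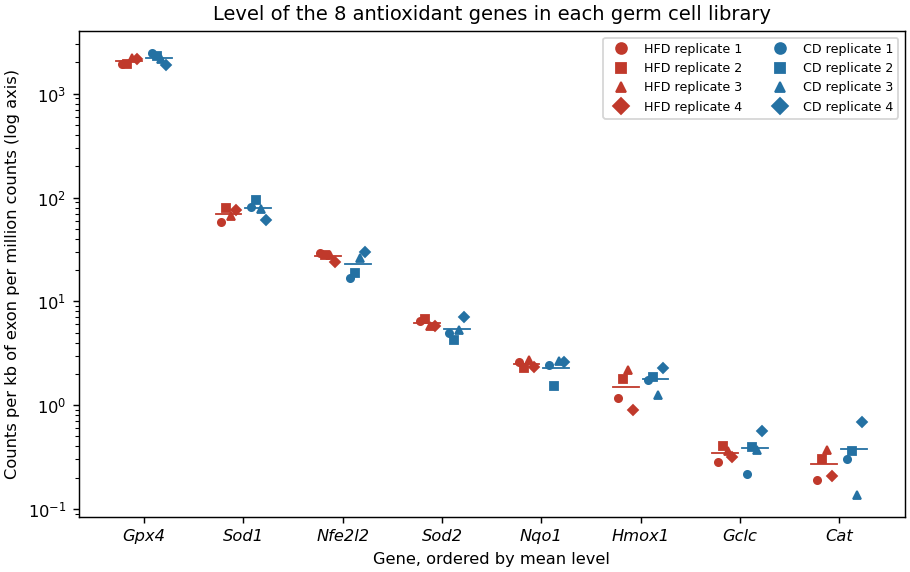
Level of each gene in each library, in RPKM on a log axis, with HFD libraries in red, CD libraries in blue, one symbol per replicate number and a line at the mean of each diet. The levels fall from Gpx4, between 1877 and 2448, to Cat, between 0.137 and 0.695, and the 2 diets overlap in each of the 8 genes.

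The order of levels was the same in every library for 5 of the 7 neighbouring pairs. The mean of Gpx4 was 28.7 times that of Sod1, with a range of 24.3 to 33.4 in single libraries. Sod1 exceeded Nfe2l2 by 2.96 times (2.01 to 5.04), Nfe2l2 exceeded Sod2 by 4.32 times (3.41 to 4.88) and Sod2 exceeded Nqo1 by 2.42 times (2.02 to 2.96), each in 8 of 8 libraries. Hmox1 exceeded Gclc by 4.50 times (2.83 to 7.96), also in 8 of 8. The other pairs did not separate. Nqo1 was above Hmox1 in 7 of 8 libraries and Gclc above Cat in 5 of 8, and in both pairs the ranges over libraries overlapped. Without the division by exon length Nfe2l2 moved to position 2 and Sod1 to position 3, since the exons of Sod1 sum to 650 bases and those of Nfe2l2 to 2328.

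Gpx4 encodes a selenium-containing peroxidase that reduces lipid peroxides within membranes. The gene (ENSRNOG00000013604, rn5 chr7:12686678-12688775, minus strand) had 8 annotated exons of 759 bases in all. In the 4 HFD libraries its level was 1939, 1941, 2213 and 2174 RPKM, and in the 4 CD libraries 2448, 2312, 2148 and 1877. CD replicates 1 and 2 were the highest of the 8 libraries and CD replicate 4 was the lowest, so that the HFD range lay inside the CD range. The HFD mean was 2067 ± 147 and the CD mean 2196 ± 246 (SD, n = 4 per diet). Between 57457 and 91402 reads were counted per library, for which counting alone gives a coefficient of variation of 0.364%.

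Cat encodes catalase, the peroxisomal enzyme that splits hydrogen peroxide. The gene (ENSRNOG00000008364, rn5 chr3:100021859-100053940, minus strand) had 13 exons of 2436 bases in all and only 18 to 72 reads per library, so that counting alone gives a coefficient of variation of 16.7%. Its level was 0.189, 0.304, 0.371 and 0.209 RPKM in the HFD libraries, and 0.307, 0.361, 0.137 and 0.695 RPKM in the CD libraries. The lowest and the highest library, CD replicates 3 and 4, were thus of the same diet and differed 5.06-fold, the widest range of the 8 genes. The HFD mean was 0.269 ± 0.0848 and the CD mean 0.375 ± 0.234 (SD, n = 4 per diet).

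The promoters of these genes, the highest and the lowest of the 8, are shown as the 250 bases before the start of transcription in RefSeq (GRCr8, an assembly other than that of the counts). The Gpx4 promoter lies at chr7:10303630-10303879 and the Cat promoter at chr3:110329527-110329776, both on the minus strand, and both are written 5′ to 3′. Capitals mark CCAAT boxes (CCAAT) and GC boxes (GGGCGG), each searched on both strands, so that ATTGG and CCGCCC are the same motifs on the other strand.
Gpx4: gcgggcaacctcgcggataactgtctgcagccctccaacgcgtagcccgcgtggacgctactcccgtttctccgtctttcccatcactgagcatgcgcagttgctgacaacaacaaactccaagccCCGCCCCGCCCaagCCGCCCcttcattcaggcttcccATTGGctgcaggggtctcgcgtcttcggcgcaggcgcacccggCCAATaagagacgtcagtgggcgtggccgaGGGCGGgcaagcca
Cat: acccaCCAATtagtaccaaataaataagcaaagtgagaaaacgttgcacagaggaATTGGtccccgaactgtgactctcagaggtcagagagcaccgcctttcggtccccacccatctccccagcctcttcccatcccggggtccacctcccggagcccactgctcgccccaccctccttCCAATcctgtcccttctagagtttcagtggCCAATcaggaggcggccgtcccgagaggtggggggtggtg

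The Gpx4 sequence held 2 CCAAT boxes and 4 GC boxes, of which 2 overlap by a base, and the Cat sequence held 4 CCAAT boxes and 0 GC boxes. Gpx4 has 3 start sites in RefSeq, and the sequence is that of the first listed. Another start had 3 CCAAT boxes and 4 GC boxes in the 250 bases before it, and the remaining start had 0 of each. Which start the GCs use was not tested. In windows of 250 bases before to 50 bases after the start, CCAAT was found in 37.5% of all 33469 RefSeq promoters and GGGCGG in 33.1%. Among the 7 of 8 genes with a promoter entry (Hmox1 had none), CCAAT was found in Cat, Gpx4, Nqo1 and Sod1, and GGGCGG in each of the 7 but Cat. A match of letters is a description of the sequence and was not tested as a binding site.

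The superoxide dismutases differed in level by compartment, with the cytosolic form above the mitochondrial form in every library. Sod1, which encodes the copper and zinc enzyme of the cytosol (ENSRNOG00000002115, rn5 chr11:33982764-33988340, plus strand, 5 exons), was at 58.6, 78.8, 66.3 and 76.2 RPKM in the HFD libraries. In the CD libraries it was at 81.3, 95.2, 76.9 and 61.2. As with Gpx4, CD replicates 1 and 2 were the highest libraries, and the diets overlapped. The HFD mean was 69.98 ± 9.29 and the CD mean 78.7 ± 14.01 (SD, n = 4 per diet).

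Sod2, which encodes the manganese enzyme of the mitochondrial matrix (ENSRNOG00000019048, rn5 chr1:51827380-51834230, plus strand, 5 exons of 2063 bases), was at 6.51, 6.83, 5.75 and 5.80 in the HFD libraries. In the CD libraries it was at 4.97, 4.25, 5.35 and 7.03. By RPKM the highest library and the 3 lowest were all of the CD, and the HFD range lay inside the CD range. In the scaling used for the diet fits below, HFD replicate 4 was among the 3 lowest in place of CD replicate 1. The ratio of Sod1 to Sod2 averaged 11.3 ± 1.71 in HFD libraries and 15.5 ± 5.65 in CD libraries (SD, n = 4 per diet). The ratio ranged from 9.01 to 13.1 in HFD libraries and from 8.70 to 22.4 in CD libraries, and it did not differ between diets beyond the spread of the libraries (two-sided exact permutation test, p = 0.286, smallest possible p = 0.0286).

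Sod1 and Sod2 also differed in promoter sequence, and each is shown for the motif that the other lacked. In Sod1 capitals mark a CCAAT box and a TATA box (TATAAA) whose first base is at position -28 from the start, within chr11:42942743-42942822 on the plus strand of GRCr8. In Sod2 capitals mark a match to the core of the antioxidant response element, the site NRF2 binds (TGACNNNGC, read here on the opposite strand), whose first base is at position -35, within chr1:50050169-50050228 on the minus strand.
Sod1: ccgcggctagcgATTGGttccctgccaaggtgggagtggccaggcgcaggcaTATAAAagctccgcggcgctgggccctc
Sod2: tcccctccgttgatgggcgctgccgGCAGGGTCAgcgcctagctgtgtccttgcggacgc

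TATAAA was found on either strand in 14.2% of all RefSeq promoter windows and, of the 7 genes searched, in Sod1, Nqo1 and Gclc. TGACNNNGC was found in 12.1% of all windows and, of these 7 genes, in Sod2 and in Nfe2l2 itself. Hmox1, without a promoter entry, was not searched. Bases outside the windows were not searched either, so that matches further from the start were not counted.

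Nfe2l2 (ENSRNOG00000001548, rn5 chr3:69041647-69069072, minus strand, 5 exons) was the third gene by level per exon length. Its match to the element core lay after the start of transcription, at position 39, and is marked in capitals in the stretch chr3:81028950-81028971 on the minus strand of GRCr8.
Nfe2l2: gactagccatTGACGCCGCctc

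The level of Nfe2l2 was 29.1, 28.2, 28.1 and 23.7 RPKM in the HFD libraries, and 16.9, 18.9, 26.0 and 29.9 RPKM in the CD libraries. CD replicates 1 and 2 were the lowest of the 8 libraries, the reverse of their place in Sod1 and Gpx4, and the diets overlapped. The HFD mean was 27.3 ± 2.40 and the CD mean 22.9 ± 6.07 (SD, n = 4 per diet). The CD libraries spread more widely than the HFD libraries, with an SD of log2 CPM (counts scaled to a library of 1000000) of 0.385 against 0.133. On this total-count scale the SD was wider in the CD in each of the 8 genes but Hmox1 (0.348 in the CD, 0.572 in the HFD).

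Transcripts of genes known as NRF2 targets, Hmox1, Nqo1 and Gclc, were at lower levels than those of Nfe2l2 in every library. Hmox1 encodes haem oxygenase 1, which degrades haem (ENSRNOG00000014117, rn5 chr19:25622556-25629372, plus strand, 5 exons). Its level was 1.16, 1.78, 2.17 and 0.906 in the HFD libraries, and 1.74, 1.88, 1.27 and 2.26 in the CD libraries. HFD replicates 1 and 4 and CD replicate 3 were the lowest, and the diets overlapped, with an HFD mean of 1.504 ± 0.575 and the CD mean 1.78 ± 0.409 (SD, n = 4 per diet).

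Nqo1, which encodes a quinone reductase (ENSRNOG00000012772, rn5 chr19:49291903-49306795, plus strand, 6 exons), was at 2.59, 2.304, 2.75 and 2.35 in the HFD libraries and at 2.45, 1.53, 2.65 and 2.59 in the CD libraries. CD replicate 2, was below all others, and the remaining 7 lay between 2.304 and 2.75. The HFD mean was 2.50 ± 0.209 and the CD mean 2.304 ± 0.522 (SD, n = 4 per diet).

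Gclc, which encodes the catalytic subunit of the enzyme that begins glutathione synthesis (ENSRNOG00000006302, rn5 chr8:84627768-84666185, plus strand, 16 exons), was at 0.286, 0.408, 0.364 and 0.320 in the HFD libraries. It was at 0.218, 0.3995, 0.367 and 0.564 in the CD libraries. The lowest and the highest library were again both of the CD, CD replicates 1 and 4. Between 32 and 77 reads were counted per library, and the HFD mean was 0.344 ± 0.0528 and the CD mean 0.387 ± 0.142 (SD, n = 4 per diet).

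The question the series addresses is whether diet changes transcripts of GCs, and no difference between diets passed the test in any of the 8 genes. With edgeR's quasi-likelihood test over all 19446 genes and Benjamini-Hochberg adjustment, 0 of the 8 had an adjusted p under 0.05, against a background of 0% of all genes tested, since 0 genes passed. At an unadjusted p under 0.05 there were 0 of 8, against 3.73% of all genes (725 genes). In 0 of 8 did the libraries of the diets fail to overlap, against 1.79% of all genes. DESeq2, in the form with shrunken fold changes that the study used, called 6 genes and without shrinkage 7 genes, none of them among the 8. These counts are over the 19446 genes tested here and are not the study's own, which covered protein-coding genes only.

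In the fit over all libraries, the 95% interval of the log2 fold change of HFD over CD included 0 in each of the 8 genes. Cat had a log2 fold change of -0.53 ± 0.408 (SE), a 95% interval from -1.42 to 0.37 and an edgeR adjusted p of 0.8293. Its estimate moved to -0.14 without CD replicate 4. In DESeq2 it was -0.545 without shrinkage, close to the edgeR value, and -0.15 with shrunken fold changes. Hmox1 was at -0.33 ± 0.269 (-0.92 to 0.26), Sod1 at -0.28 ± 0.164 (-0.64 to 0.08), Gclc at -0.22 ± 0.241 (-0.75 to 0.30) and Gpx4 at -0.20 ± 0.141 (-0.50 to 0.11). Above 0 were Nfe2l2 at 0.18 ± 0.118 (-0.08 to 0.44), Sod2 at 0.12 ± 0.117 (-0.14 to 0.38) and Nqo1 at 0.02 ± 0.180 (-0.37 to 0.41). The edgeR adjusted p values of the 8 lay between 0.8293 and 0.984. Their median log2 fold change was -0.21, beside -0.01 over all genes tested, but it was -0.096 without CD replicate 4 and -0.036 without CD replicates 1 and 2. Of the 8, 3 were above 0, beside 48.8% of all genes.

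The intervals give the sizes of change that these 8 libraries can still hold. In 7 of the 8 genes, all but Cat, the 95% interval lay within a 2-fold change in either direction, beside 66.6% of all genes tested. That count turned on single libraries, as the interval of Hmox1 passed 2-fold without HFD replicate 2, HFD replicate 3 or CD replicate 3 (lower bounds of -1.07, -1.16 and -1.09), and the interval of Cat lay within it without CD replicate 4 (-0.98 to 0.71). For Gpx4 the interval in linear terms ran from 0.706 to 1.08 times the CD level, for Sod1 from 0.642 to 1.06 times, for Nfe2l2 from 0.945 to 1.35 times and for Sod2 from 0.910 to 1.30 times. For Cat it ran from 0.373 to 1.29 times, so that a fall of more than 2-fold lay inside its interval. A p that misses the threshold does not show equal levels, and smaller changes than these bounds remain possible in each gene.

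**Figure D2:**
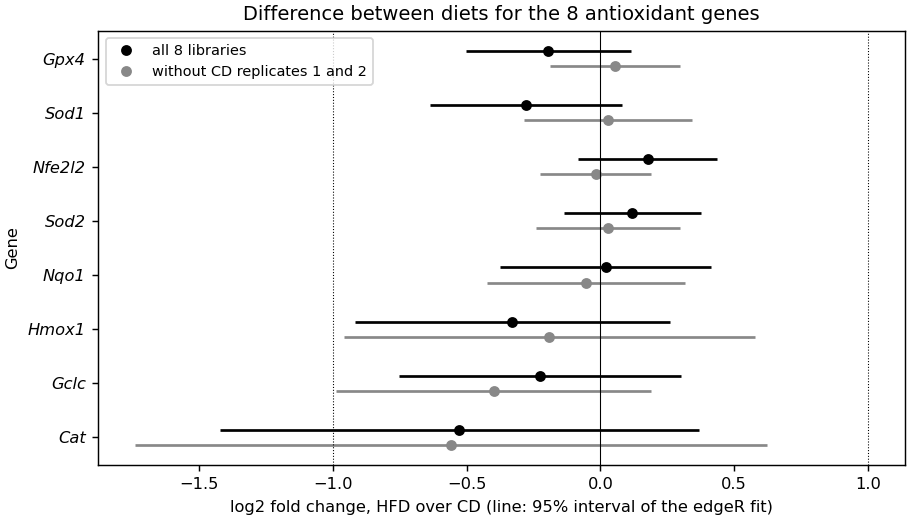
Log2 fold change of HFD over CD for each gene from the edgeR fit, with points for the estimate and lines for the 95% interval, over all 8 libraries (black) and without CD replicates 1 and 2 (grey). Dotted lines mark a 2-fold change. All intervals include 0, and the estimates of Sod1, Gpx4, Nfe2l2 and Nqo1 lie on the other side of 0 in grey.

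Libraries CD replicate 1 and CD replicate 2 stood apart from the other 6 over the whole transcriptome, and Gpx4, Sod1 and Nfe2l2 were among the genes at an extreme there. Average linkage clustering of log2(CPM + 1) parted these libraries first, and principal component 1, with 41.9% of the variance, placed them at one end. After TMM scaling, which sets libraries on a common scale through their shared genes, Gpx4 was at 2171 and 1859 CPM in these libraries and at 1310 to 1686 CPM in the other 6. Sod1 was at 61.7 and 65.6 CPM against 36.5 to 49.98 CPM, and Nfe2l2 at 46.0 and 46.6 CPM against 54.5 to 65.5 CPM. Thus Gpx4 and Sod1 had their 2 highest values there, a pattern shared by 15.5% of all genes tested, and Nfe2l2 had its 2 lowest, shared by 17.7%. Sod2 had its 2 lowest values in these libraries when scaled by total counts, as did 30.1% of all genes on that scale, but not after TMM scaling. On the total-count scale 7.67% of all genes had their 2 highest values there.

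Without both libraries, a choice made after the data were seen, the log2 fold changes of Sod1, Gpx4 and Nfe2l2 moved to 0.029 (-0.29 to 0.34), 0.054 (-0.19 to 0.30) and -0.018 (-0.23 to 0.19). The direction of the difference in these 3 genes therefore rested on CD replicates 1 and 2 together. Nqo1 moved to -0.054, but CD replicate 1 was its highest library after TMM scaling and CD replicate 2 its lowest, and it changed sign without CD replicate 2 alone (-0.12) or HFD replicate 3 alone (-0.048). Sod2 kept its sign but fell from 0.12 with all 8 libraries to 0.028 (-0.24 to 0.30), a value like that of Sod1. The estimates of Cat at -0.56, Hmox1 at -0.19 and Gclc at -0.40 also kept their sign. Without both libraries the edgeR adjusted p was 0.9998 in each of the 8 genes. CD replicate 4, at the opposite end of principal component 1, was the lowest library for Gpx4 after TMM scaling and next to the lowest for Sod1. Without CD replicate 4 the log2 fold changes were -0.42 for Sod1, -0.31 for Gpx4 and 0.27 for Nfe2l2 and these 3 of the 8 genes had an unadjusted p under 0.05, with edgeR adjusted p of 0.221, 0.226 and 0.248. In that fit 3379 of all genes (17.5%) had an unadjusted p under 0.05 and 0 passed after adjustment. At an unadjusted edgeR p under 0.05, 1 of the 8 genes passed without HFD replicate 3 (Hmox1, adjusted p = 0.849), beside 4.46% of all genes, and 1 of 8 without CD replicate 3 (Cat, adjusted p = 0.720), beside 5.45%. The part of library composition in these differences was not tested.

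**Figure D3:**
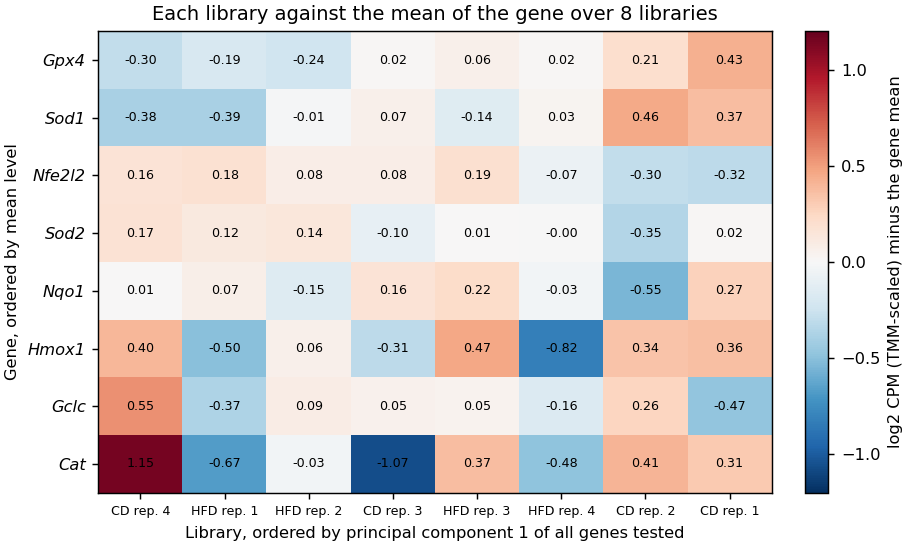
Log2 CPM after TMM scaling of each gene in each library minus the mean of that gene over the 8 libraries, with libraries ordered by principal component 1 of all genes tested. Gpx4 and Sod1 are above their means and Nfe2l2 below its mean in CD replicates 1 and 2 at the right end, and the widest deviations are those of Cat, at 1.15 in CD replicate 4 and -1.07 in CD replicate 3.

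Cat and Hmox1 had the same libraries at the top and at the bottom, though not in the same order. Cat was highest in CD replicate 4 and lowest in CD replicate 3, and Hmox1 was highest in HFD replicate 3 and lowest in HFD replicate 4. Both had their 4 highest TMM-scaled levels in CD replicates 1, 2 and 4 and HFD replicate 3, and their 3 lowest in CD replicate 3 and HFD replicates 1 and 4. This division of the libraries, defined from Cat, was found in 117 of the 19446 genes (0.602%), Cat and Hmox1 included. The likeness was noticed after the values were seen, and Cat had only 18 to 72 reads per library.

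The spread between libraries of one diet differed among the 8 genes. The biological coefficient of variation, the spread edgeR estimates beyond counting error, was 12.8% for Sod2, 12.98% for Nfe2l2, 15.1% for Gpx4, 17.1% for Sod1 and 17.8% for Nqo1. It was 21.3% for Gclc, 26.4% for Hmox1 and 38.0% for Cat. For genes of like mean count the trend was 26.9% at Cat, 20.8% at Hmox1, 12.7% at Sod1 and 13.2% at Gpx4. Cat, Hmox1, Sod1, Gpx4 and Nfe2l2 were above the trend and Sod2, Nqo1 and Gclc below it, which is 5 of 8 above, beside 37.6% of all genes.

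**Figure D4:**
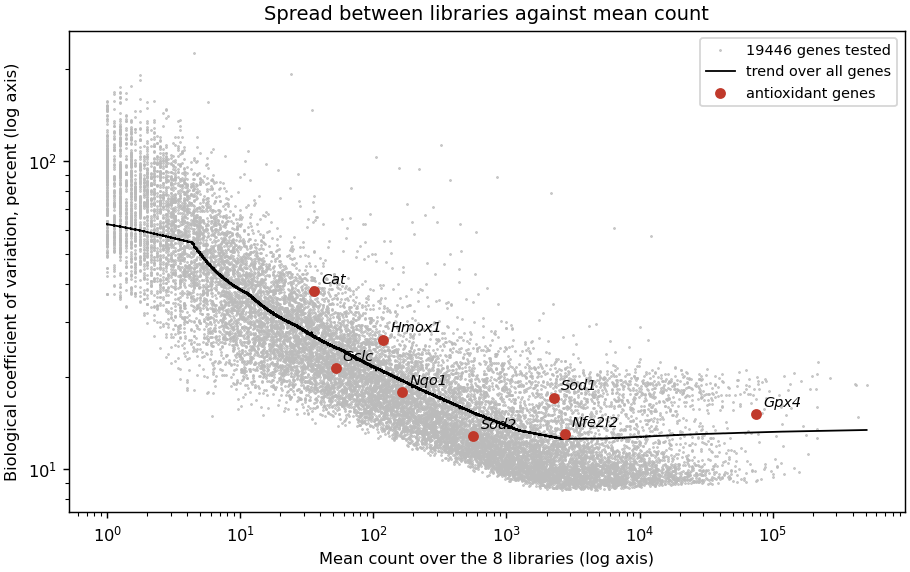
Biological coefficient of variation in percent against the mean count over the 8 libraries, both on log axes, for the 19446 genes tested (grey), with the trend over all genes (line) and the antioxidant genes (red). Cat, at 38.0%, and Hmox1, at 26.4%, lie above the trend, and Sod2, at 12.8%, lies below it.

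Gene structure gave no shared reads between the 8 genes and their annotated neighbours. None of the 8 shared exon bases with another annotated gene, and the one gene annotated inside the span of Cat had 0 counts in all libraries. Median exon length was 1802.5 bases for the 8 genes and 1792 for all genes tested, and the median number of exons 5.5 and 7. Near-identical copies elsewhere in the genome, which can take reads from a gene, were not checked.

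Piwi-interacting RNAs (piRNAs), small RNAs of germ cells that silence matching transcripts, were counted in 8 small RNA libraries of the same groups. Of 58165 annotated piRNAs, 1 lay in an exon of the 8 genes, rat_piRNA_168983 in Sod1 at rn5 chr11:33986353-33986377. It had 0 counts in all 8 libraries, which held between 891575 and 1240080 piRNA counts each, so that a share of up to 0.000242% to 0.000336% of a library is allowed (3 counts, counting error only). A further 15 piRNAs were annotated in introns of Cat, Gclc, Nqo1 and Nfe2l2, each listed at between 48 and 33412 places in the genome, so that their reads cannot be given to these genes. The piRNA counts hold reads of one orientation only.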

How the data were processed

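According to the labels, the file headers and the paper's methods, the authors extracted RNA from sorted cells, made mRNA libraries with the TruSeq RNA kit v2, which does not mark strand, and aligned reads to rn5 with STAR 2.3.0. They counted reads of mapping quality 1 or more over Ensembl genes with featureCounts 1.4.6 on the reverse strand. The kit as named and counting by strand are in conflict, which was not resolved. If the reads carry no strand, those of a gene and of an antisense partner cannot be told apart. The authors deposited raw counts for genes and piRNAs, with no normalization. In 1 small RNA table, that of CD replicate 4, the column is named for another library number. Its sample assignment follows the series record.

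The members and lists were chosen with earlier results of these data known. By rule, all 8 members were named, and other genes only where a reference table gave a symbol. Groups came from the sample labels. Levels were divided by the exon length given in the tables. Diets were compared in R 4.3.3 with edgeR 4.0.16 (TMM, quasi-likelihood test, mean count of 1 or more as filter, Benjamini-Hochberg adjustment over 19446 genes, threshold 0.05). The SE was the size of the log2 fold change over the square root of F. Ratios were compared by exact permutation over 70 labellings. The fit was tested on simulated data. Alternatives were DESeq2 1.42.0, other size factors, other filters, a robust fit, a replicate block, and leaving out libraries. Library labels carry a replicate number only, and the paper counts reads per animal, so that p values were read as measuring the spread between rats. Library pairs all differed beyond sampling noise (lowest chi-square per degree of freedom 9.09). Promoter sequences are from RefSeq (GRCr8), matched by symbol, and were not placed on rn5. The miRNA and repeat counts were not used here.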

Additional observations from a re-analysis of the deposited data

How the results depend on the processing

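No member passed the threshold in any alternative run, and the smallest edgeR adjusted p over all alternatives was 0.221 for Sod1. The count of all genes past the threshold, 0 in the edgeR fit, was 6 with DESeq2 and shrunken fold changes and 7 with DESeq2 without shrinkage, and between 0 and 1 when each library was left out in turn. In those fits the log2 fold change lay from -0.42 to -0.17 for Sod1, 0.03 to 0.20 for Sod2, -0.82 to -0.14 for Cat, -0.31 to -0.08 for Gpx4, -0.58 to -0.16 for Hmox1, -0.39 to -0.06 for Gclc and 0.10 to 0.27 for Nfe2l2. Nqo1 ranged from -0.12 to 0.12 and changed sign without HFD replicate 3 (-0.048) and without CD replicate 2 (-0.12). Without both CD replicates 1 and 2, chosen after the data were seen, Sod1 was at 0.029, Gpx4 at 0.054, Nqo1 at -0.054 and Nfe2l2 at -0.018, each of the opposite sign, and the cause was not tested. With total counts in place of TMM the median log2 fold change of all genes moved from -0.01 to 0.08, and that of the 8 members from -0.21 to -0.12.

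Replicate numbers are shared by the diets, but same-numbered libraries did not deviate together: the correlations of their deviations lay between -0.50 and 0.02, with 0 of 4 above 0.1, and 0 of 4 HFD libraries correlated best with their own number. With the replicate block 0 genes passed, 322 had an unadjusted p under 0.05, and no call on a member changed. Among all listed genes, in place of those tested, the percentile was 99.94 for Gpx4, 94.1 for Sod1, 86.8 for Nfe2l2, 74.4 for Sod2, 66.9 for Nqo1, 63.8 for Hmox1, 50.3 for Gclc and 49.1 for Cat. By CPM Sod1 was at position 3 and Nfe2l2 at position 2. Taking the whole gene span in place of the exons, 5 members held an annotated piRNA. The alternatives for other antioxidant genes were not run, since 0 of 51 were matched. The depth limits Cat and Gclc most, with a counting coefficient of variation of 16.7% and 13.9%.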
